A study of Mus musculus with 8 samples.

Results

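The 10 genes described here are targets of the tumour suppressor p53: Cdkn1a, Mdm2, Ccng1, Bax, Phlda3, Gdf15, Eda2r, Zmat3, Trp53inp1 and Btg2. They were taken by name, and each matched 1 of the 54838 genes counted in every library. Messenger RNA was sequenced in 8 libraries of mouse liver, of which the labels call 4 tumour and 4 non-tumour. All came from wild-type male C57BL/6J mice that had received the liver carcinogen diethylnitrosamine (DEN) intraperitoneally on day 15 and a high-fat diet with SW, which the labels do not expand, for 30 weeks. Non-tumour tissue thus carried the same carcinogen and diet as the tumours, and there was no untreated liver. The labels also count the 30 weeks from the injection, which leaves the mice's age unclear, and they do not say which pieces came from the same mouse. The p-values measure only the spread between these samples, which may be technical.

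p53 is a transcription factor that is kept low by the ubiquitin ligase MDM2 and accumulates after DNA damage and other stress. It then binds response elements near its target genes, whose products stop the cell cycle, repair DNA, set off cell death, alter growth signalling, or feed back on p53 itself. In liver, DEN is converted by hepatocytes into a reagent that alkylates DNA. The level of Trp53 messenger RNA, which encodes p53, says little about the activity of the protein, because p53 is mostly controlled by its breakdown.

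Counts assigned to genes numbered 15446690 in the shallowest library and 21977052 in the deepest, and the 7 hepatocyte markers summed to 117573 to 169389 CPM in tumours and 94695 to 110882 CPM in non-tumour tissue (CPM, counts scaled to a common library total). Albumin (Alb) alone took 7.91% to 13.9% of the counts in tumours and 7.56% to 7.89% in non-tumour tissue, and 3 of the 7 markers had a positive log2 fold change. The 8 libraries held 5 distinct profiles, because tumour 2 nearly matched tumour 4, and non-tumour 2, 3 and 4 nearly matched one another. The chi-square of gene counts per degree of freedom was 1.58 to 3.28 in these 4 pairs and 71.7 to 165 in the other 24. These libraries were counted once in each test and in each mean ± SD, which leaves 3 profiles of tumour (1, 2/4 and 3) against 2 of non-tumour tissue (1 and 2/3/4). Tumour 3 stood apart from the other tumours in the fetal liver protein Afp, with 841, 425, 1.46 and 426 CPM in tumours 1 to 4, against 19.4, 4.89, 4.70 and 5.05 CPM in non-tumour 1 to 4. By the chi-square per degree of freedom, the library nearest to tumour 3 was non-tumour 1, at 78.1, against 160 to 165 for the other tumours.

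The promoter windows of the targets were searched for the p53 motif, because p53 acts through such elements. RefSeq gives windows from 250 bases before to 50 bases after a transcription start (GRCm38.p6), and 8 of the 10 genes had at least 1, with 10 windows in all. The motif is a 10-base unit, written here as the p53 decamer. Its consensus reads the same on both strands. A response element was counted where a pair of decamers lay at most 13 bases apart with at most 2 mismatches in all. Windows of 3 genes, Cdkn1a, Ccng1 and Bax, held such an element, and the Mdm2 window held a single exact decamer. The 4 windows follow, each 5′ to 3′ along the gene's strand, with exact decamers and the elements with at most 1 mismatch in capitals.

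Cdkn1a, chr17:29090729-29091028, plus strand: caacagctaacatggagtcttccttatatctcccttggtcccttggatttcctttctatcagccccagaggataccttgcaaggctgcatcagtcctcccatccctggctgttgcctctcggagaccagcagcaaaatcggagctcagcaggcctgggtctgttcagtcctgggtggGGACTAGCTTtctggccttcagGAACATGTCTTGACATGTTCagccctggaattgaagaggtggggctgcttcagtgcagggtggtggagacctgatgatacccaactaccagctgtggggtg

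Ccng1, chr11:40755237-40755536, minus strand: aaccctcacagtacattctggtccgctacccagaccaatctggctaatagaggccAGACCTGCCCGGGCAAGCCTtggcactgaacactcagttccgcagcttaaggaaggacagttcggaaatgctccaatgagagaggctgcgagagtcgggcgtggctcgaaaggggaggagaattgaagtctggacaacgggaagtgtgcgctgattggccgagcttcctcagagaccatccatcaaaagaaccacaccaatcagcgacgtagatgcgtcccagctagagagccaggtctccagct

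Bax, chr7:45466849-45467148, minus strand: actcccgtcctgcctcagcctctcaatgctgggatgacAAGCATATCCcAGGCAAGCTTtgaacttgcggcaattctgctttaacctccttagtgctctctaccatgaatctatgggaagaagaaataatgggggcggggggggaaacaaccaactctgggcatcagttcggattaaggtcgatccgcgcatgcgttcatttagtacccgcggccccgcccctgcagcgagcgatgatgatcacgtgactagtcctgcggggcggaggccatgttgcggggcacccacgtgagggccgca

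Mdm2, chr10:117710709-117711008, minus strand: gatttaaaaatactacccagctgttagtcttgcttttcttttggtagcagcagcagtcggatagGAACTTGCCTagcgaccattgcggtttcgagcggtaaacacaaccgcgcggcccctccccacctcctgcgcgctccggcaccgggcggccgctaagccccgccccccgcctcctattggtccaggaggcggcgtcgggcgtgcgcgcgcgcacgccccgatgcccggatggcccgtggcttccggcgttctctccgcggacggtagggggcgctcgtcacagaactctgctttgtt

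In the Cdkn1a window the element with no mismatch, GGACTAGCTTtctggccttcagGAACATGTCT, ran from base -73 to -42, counted from the start. A second Cdkn1a element, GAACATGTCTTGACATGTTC, had 1 mismatch and no spacer and ran from -51 to -32. This window belongs to the more distal of the 2 Cdkn1a starts in RefSeq, and the window of the other start held no match. The Ccng1 element, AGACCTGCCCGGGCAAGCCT (-195 to -176), and the Bax element, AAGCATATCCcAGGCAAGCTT (-212 to -192), each had 1 mismatch. Of all 32851 promoter windows in the table, 10.1% held an element and 8.36% an exact decamer. The windows of Btg2, Eda2r, Gdf15 and Phlda3 held neither, which says only that these letters are not in those windows. The matches are sequence descriptions, and binding was not measured.

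Setting tumour against non-tumour tissue asks how these targets differ between the tumours and liver labelled as free of them. Each of the 10 had a higher fitted level in tumours, and none passed the test. For 7 the profiles of the groups overlapped, and for Ccng1, Bax and Phlda3 they did not. In the quasi-likelihood test of edgeR, adjusted after Benjamini and Hochberg over 13650 genes, 0 of the 10 had an adjusted p under 0.05, against 0% of all genes, and each had an adjusted p of 0.995. At an unadjusted p under 0.05 there was 1 of the 10, Phlda3, against 3.3% of all genes. DESeq2 and limma voom also called 0 of the 10, against 0.0147% and 0% of all genes, so these counts say little about the 10. The median log2 fold change was 0.43 for the 10 genes and 0.01 for all genes. A positive value was found in 10 of 10, against 52.2% of all genes, and also in 10 of 10 under each of 3 other scalings of the same profiles. Leaving out a profile kept 10 of 10 positive, except 9 without tumour 1 and 8 without non-tumour 1. The list had been chosen with earlier results of these data known, so this shared sign is a description. In whole tissue, a lower number of cells of a type and less RNA per cell cannot be told apart.

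**Figure D1:**
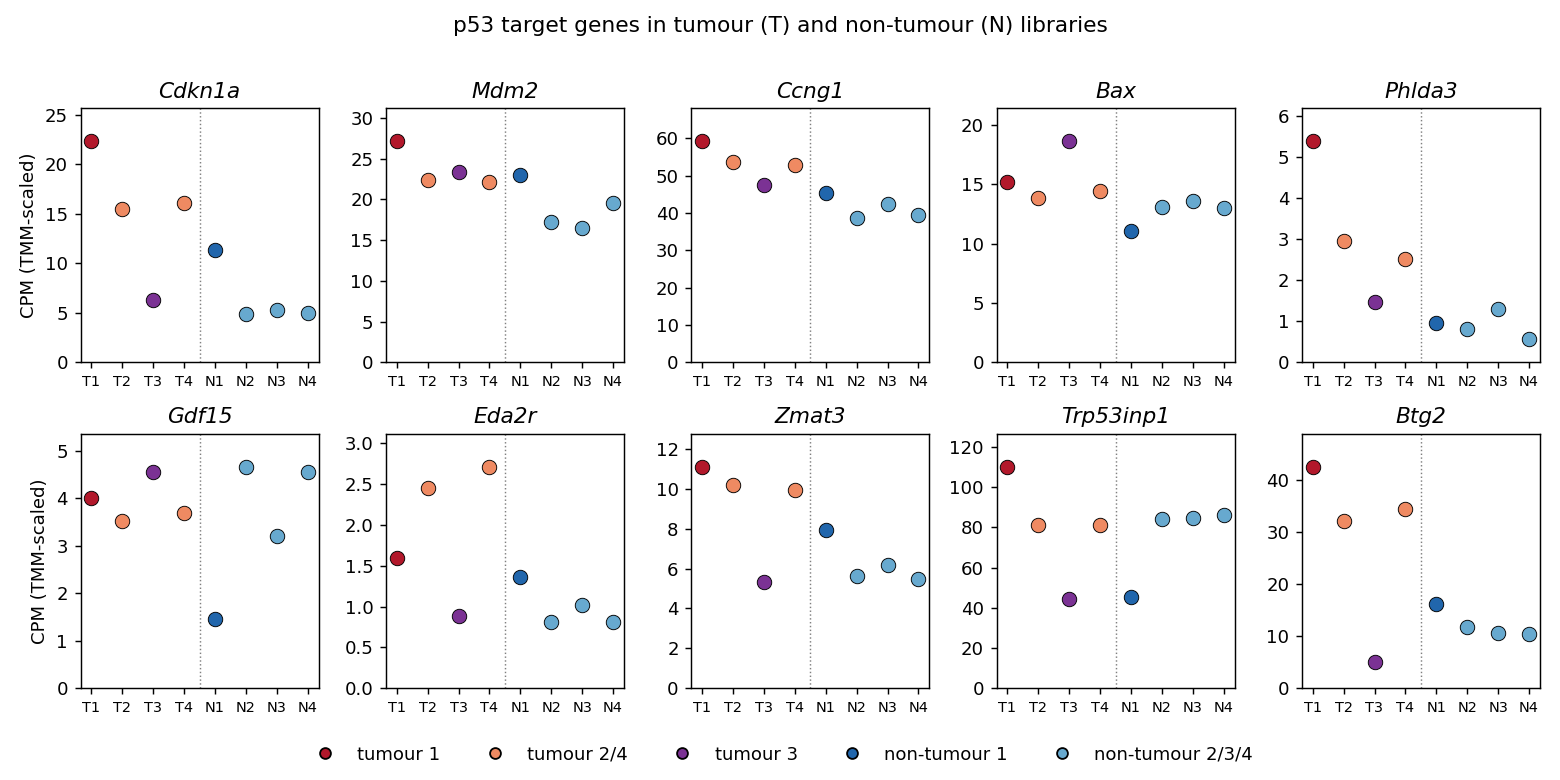
CPM of the 10 p53 target genes in each of the 4 tumour (T1 to T4) and 4 non-tumour (N1 to N4) libraries, on linear axes from 0, with near-identical libraries in the same colour. Cdkn1a, Btg2 and Zmat3 were high in tumours 1, 2 and 4 and low in tumour 3, whereas Bax was highest in tumour 3.

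Mdm2 and Ccng1 act back on p53. Mdm2 (chromosome 10, 117688875 to 117710758, minus strand, GRCm38) encodes the ligase that marks p53 for breakdown. It stood at 27.1, 22.4, 23.4 and 22.1 CPM in tumours 1 to 4, against 23.0, 17.2, 16.5 and 19.5 CPM in non-tumour 1 to 4. The groups overlapped, since non-tumour 1 lay above tumour 2/4, and the log2 fold change was 0.25 (SE 0.19). Ccng1 (chromosome 11, 40748552 to 40755311, minus strand) encodes cyclin G1, which brings a phosphatase to MDM2. It stood at 59.2, 53.8, 47.6 and 52.8 CPM in tumours 1 to 4, against 45.5, 38.7, 42.5 and 39.5 CPM in non-tumour 1 to 4. Every tumour library was above every non-tumour library, by a small margin between tumour 3 and non-tumour 1. The profiles averaged 53.4 ± 5.77 CPM in tumours (SD, n = 3) and 42.9 ± 3.67 CPM in non-tumour tissue (SD, n = 2), a log2 fold change of 0.31 (SE 0.17).

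Trp53 itself (chromosome 11, 69580359 to 69591873) was nearly level, with 15.6, 18.5, 18.5 and 17.3 CPM in tumours 1 to 4, against 17.5, 15.0, 16.2 and 14.2 CPM in non-tumour 1 to 4. Its log2 fold change was 0.08 (SE 0.17), and -0.02 without non-tumour 2/3/4. Mdm4, the MDM2 relative that holds p53 inactive, was highest in tumour 3, at 50.2 CPM. In tumours 1, 2 and 4 it stood at 28.0, 24.5 and 26.1 CPM, against 21.9 to 26.3 CPM in the non-tumour libraries. The Mdm4 log2 fold change was 0.49 (SE 0.32).

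Cdkn1a and Btg2 restrain proliferation and spread widely between profiles. Cdkn1a (chromosome 17, 29090976 to 29100727, plus strand) encodes p21, an inhibitor of cyclin-dependent kinases and the best known p53 target. It stood at 22.3, 15.5, 6.33 and 16.1 CPM in tumours 1 to 4, against 11.3, 4.89, 5.32 and 4.99 CPM in non-tumour 1 to 4. Tumours 1, 2 and 4 were above all non-tumour libraries, but tumour 3 was below non-tumour 1. Exact Poisson 95% intervals, which cover counting error only, were 5.15 to 7.70 CPM in tumour 3 and 9.86 to 12.9 CPM in non-tumour 1, which do not overlap. The log2 fold change was 0.87 (SE 0.57), or 1.24 (SE 0.41, adjusted p = 0.456, edgeR) without tumour 3. Leaving out each other profile in turn gave 0.39 to 1.54. The adjusted p over its alternatives was 0.0238 to 1. The lowest (edgeR) came from 8 separate libraries without tumour 3, a fit that counts repeats as replicates.

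Btg2 (chromosome 1, 134075170 to 134079120, minus strand) encodes an antiproliferative protein that recruits the CCR4-NOT deadenylase to messenger RNAs. It had the widest range of the 10 genes, 8.59-fold between the highest and lowest profile. It stood at 42.4, 32.0, 4.94 and 34.4 CPM in tumours 1 to 4, against 16.1, 11.7, 10.6 and 10.4 CPM in non-tumour 1 to 4. Tumour 3 was thus the lowest library and tumours 1, 2 and 4 the highest, on either side of the non-tumour libraries. The log2 fold change was 0.99 (SE 0.78), 1.48 (SE 0.24, adjusted p = 0.141, edgeR) without tumour 3 and 0.51 without tumour 1. The adjusted p over its alternatives was 0.0015 to 1, lowest (edgeR) with 8 separate libraries and no tumour 3, which counts repeats as replicates.

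Bax, Phlda3 and Trp53inp1 take part in cell death and survival signalling. Bax (chromosome 7, 45461697 to 45466898, minus strand) encodes a protein that permeabilises the mitochondrial outer membrane. It stood at 15.2, 13.8, 18.6 and 14.4 CPM in tumours 1 to 4, against 11.1, 13.1, 13.6 and 13 CPM in non-tumour 1 to 4. All tumour libraries were higher, with tumour 3 on top and a narrow gap between tumour 2 and non-tumour 3, and the log2 fold change was 0.38 (SE 0.20).

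Phlda3 (chromosome 1, 135766119 to 135769136, plus strand), whose pleckstrin homology domain protein restrains the kinase AKT, had the highest fold change of the 10. It stood at 5.37, 2.94, 1.46 and 2.51 CPM in tumours 1 to 4, against 0.958, 0.815, 1.29 and 0.561 CPM in non-tumour 1 to 4. All tumours were above all non-tumour libraries, with tumour 3 closest to them. The counts were low, from 9 reads in non-tumour 4 to 118 in tumour 1. The Poisson interval of tumour 3, 0.923 to 2.19 CPM, overlapped that of non-tumour 3, 0.780 to 2.02 CPM. The Phlda3 log2 fold change was 1.79 (SE 0.59), 2.13 (SE 0.44, adjusted p = 0.194, edgeR) without tumour 3 and 1.20 (SE 0.50) without tumour 1. The adjusted p over its alternatives was 0.0101 to 1, lowest (edgeR) with 8 separate libraries and no tumour 3, which counts repeats as replicates.

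Trp53inp1 (chromosome 4, 11156431 to 11174379, plus strand) encodes a stress protein of the nucleus and of autophagosomes. It stood at 110, 81.0, 44.3 and 81.0 CPM in tumours 1 to 4, against 45.4, 84.4, 84.8 and 86.4 CPM in non-tumour 1 to 4. The groups overlapped fully, with tumour 3 and non-tumour 1 low together. Its log2 fold change was 0.25 (SE 0.43) over the 5 profiles, but -0.07 without tumour 1 and -0.14 without non-tumour 1.

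Gdf15 and Eda2r signal between cells. Gdf15 (chromosome 8, 70629393 to 70632456, minus strand) encodes a secreted TGF-beta family hormone, which is also induced by the integrated stress response. It stood at 4.00, 3.53, 4.56 and 3.70 CPM in tumours 1 to 4, against 1.46, 4.66, 3.20 and 4.55 CPM in non-tumour 1 to 4. Only non-tumour 1 was low, while the other non-tumour libraries covered the range of the tumours. The log2 fold change of 0.48 (SE 0.46) rested on that library and was -0.07 (SE 0.33) without it. The gene of its receptor, Gfral, which is known from the hindbrain, had 0 counts in every library, which allows a level of up to 0.136 CPM in the deepest and 0.204 CPM in the shallowest.

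Eda2r (chromosome X, 97333840 to 97377216, minus strand) encodes a receptor for the A2 form of ectodysplasin. It stood at 1.59, 2.45, 0.887 and 2.71 CPM in tumours 1 to 4, against 1.36, 0.815, 1.02 and 0.811 CPM in non-tumour 1 to 4. Tumours 2 and 4 were highest and tumour 3 lay among the non-tumour libraries, on 13 to 55 reads per library. Its log2 fold change was 0.63 (SE 0.53), and that of its ligand gene Eda was -0.02 (SE 0.51).

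Zmat3 (chromosome 3, 32334792 to 32366014, minus strand) encodes a zinc finger protein that binds RNA and alters splicing. It stood at 11.1, 10.2, 5.32 and 9.96 CPM in tumours 1 to 4, against 7.96, 5.65, 6.20 and 5.49 CPM in non-tumour 1 to 4. As for Btg2, tumour 3 was the lowest library and the other tumours the highest. For Zmat3, however, tumour 3 was nearly level with non-tumour 4, with 84 and 88 reads. The log2 fold change was 0.37 (SE 0.35), 0.63 (SE 0.23, adjusted p = 0.482, edgeR) without tumour 3 and 0.18 without tumour 1. The adjusted p over its alternatives was 0.0175 to 1, lowest (edgeR) with 8 separate libraries and no tumour 3, which counts repeats as replicates.

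**Figure D2:**
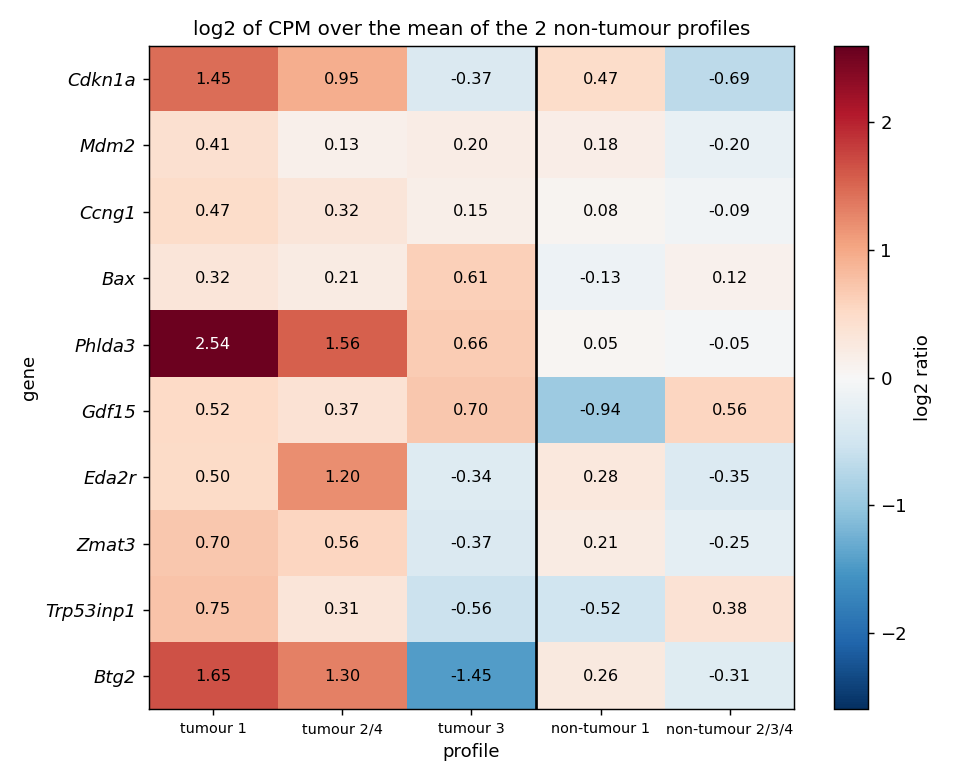
Heat map of log2 CPM of each profile over the mean of the 2 non-tumour profiles, with genes in rows and profiles in columns (tumours left of the line, non-tumour right). Phlda3 in tumour 1 is the highest value, 2.54, and Btg2 in tumour 3 the lowest, -1.45.

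The tumours did not share a single pattern. Relative to the mean of the non-tumour profiles, the median log2 ratio of the 10 genes was 0.61 in tumour 1, 0.46 in tumour 2/4 and -0.09 in tumour 3, and 0.13 in non-tumour 1 and -0.14 in non-tumour 2/3/4. Tumour 1 was above both non-tumour profiles for 9 of the 10 genes, against 35% of all genes. The same held for 7 of 10 in tumour 2/4, against 33%, and for 5 of 10 in tumour 3, against 37.8%. Tumour 3 was below both non-tumour profiles for 3 of the 10, against 37.1%, and tumour 1 for 0 of 10, against 32.2%. Set directly against tumour 3, tumour 1 was higher for 8 of the 10, against 50.7% of all genes, and tumour 2/4 for 7, against 51.3%. Tumour 1 had the highest level of the 5 profiles for 7 of the 10, against 20.5% of all genes. Tumour 3 had the lowest level for 3, Btg2, Zmat3 and Trp53inp1, against 30.6% of all genes, which is close to that background. The next profile was close for Zmat3 (5.32 and 5.78 CPM) and for Trp53inp1 (44.3 and 45.4 CPM). Non-tumour 2/3/4 was lowest for 5, against 18% of all genes. Non-tumour 1 was lowest for 2, Bax and Gdf15, and tumour 1 for 0, each against 19.6%. Each tumour profile is 1 sample, so differences between tumours have no replicate check.

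Every tumour profile was above every non-tumour profile for 3 of the 10 genes, Ccng1, Bax and Phlda3, against 9.99% of all genes, and below them for 0 of 10, against 8.34%. The other 7 overlapped. The repeats showed how far a value moves without a change of profile. Within near-identical libraries the largest ratio was 1.02 for Trp53inp1 and 2.31 for Phlda3 at the extremes, and between profiles it was 1.47 for Ccng1 and 8.59 for Btg2 at the extremes. The profiles had been kept apart because their counts differed, so this contrast is a description.

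**Figure D3:**
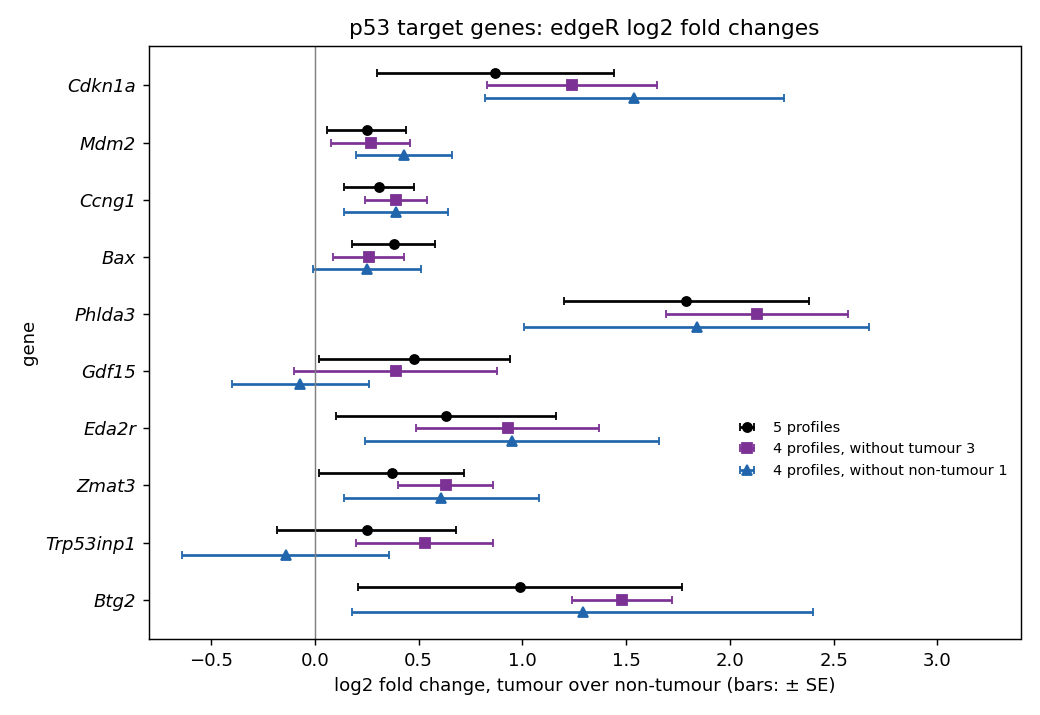
log2 fold change (tumour over non-tumour, edgeR) of each gene with bars of ± SE, over 5 profiles (circles), without tumour 3 (squares) and without non-tumour 1 (triangles). Gdf15 and Trp53inp1 lie below 0 without non-tumour 1. Cdkn1a, Btg2 and Phlda3 lie further from 0 without tumour 3, and also without non-tumour 1. Bax and Gdf15 lie nearer 0 without tumour 3.

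Without tumour 3, 0 of the 10 genes passed over 4 profiles, against 0.0357% of all genes, and 5 of 10 had an unadjusted p under 0.05, against 9.09%. Taking all 8 libraries as separate replicates also gave 0 of 10, against 0.435%, with 8 of 10 at an unadjusted p under 0.05, against 18%. With no filter on low counts, 2 of the 10 passed over the 5 profiles, Phlda3 and Btg2, against 1.74% of all genes. On these same profiles the SE of Btg2 was 0.78 with the filter and 0.24 without it, at log2 fold changes of 0.99 and 0.98. The SE of Ccng1 moved the other way, from 0.17 to 0.24. The pass of Btg2 thus came with a smaller SE, not with a larger difference. The fit of 8 libraries counts repeats as replicates. Without tumour 3, that fit called 6 of the 10, against 13.6% of all genes, and without non-tumour 1 it called 2 of 10, against 5.85%.

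Compared per length, Ccng1 was the most abundant of the 10 transcripts and Eda2r the least. In RPKM, which is CPM divided by the exon length in kilobases, Ccng1 averaged 15.2 ± 1.64 in tumours (SD, n = 3) and 12.2 ± 1.05 in non-tumour tissue (SD, n = 2). Trp53inp1, Bax and Btg2 followed, at 12.1 ± 5.05, 10.1 ± 1.47 and 9.79 ± 7.12 RPKM in tumours, against 10.1 ± 4.34, 7.72 ± 0.962 and 4.92 ± 1.35 RPKM in non-tumour tissue. Mdm2 and Cdkn1a were in the middle, at 4.77 ± 0.495 and 4.17 ± 2.26 RPKM in tumours, against 4.00 ± 0.731 and 2.30 ± 1.24 RPKM in non-tumour tissue. Gdf15, Phlda3, Zmat3 and Eda2r were low, at 2.19 ± 0.257, 2.04 ± 1.28, 0.774 ± 0.272 and 0.286 ± 0.144 RPKM in tumours, against 1.51 ± 1.02, 0.593 ± 0.0304, 0.601 ± 0.135 and 0.190 ± 0.0574 RPKM in non-tumour tissue. The ranges over the 5 profiles overlapped for 8 of the 9 neighbouring pairs in this order, the exception being Zmat3 and Eda2r.

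Other genes of the pathway were described from lists chosen with earlier results known. None of their tested genes passed the adjusted threshold in edgeR over the 5 profiles, as for all genes. Among the genes named here, Gadd45a and Ddit3 passed with the 8 libraries as separate replicates, and Trib3, Cdkn2b, Gadd45a, Lif and Cdkn2a passed with no filter on low counts. With no filter the SE of Cdkn2b was 0.40, against 1.45 with it, at log2 fold changes of 3.29 and 3.31. Over the 5 profiles with the filter, Gadd45a, Mybl2, Ddit3 and Trib3 were among the genes with an unadjusted p under 0.05 (edgeR). Among p53 and its regulators, 9 of 16 tested genes had a positive and 7 a negative log2 fold change, with a median of 0.07. The lowest p-values belonged to Rchy1, a ubiquitin ligase for p53, at 0.26 (SE 0.15), and Atr, a kinase of the replication stress response, at 0.35 (SE 0.20). The p53 relatives Trp63 and Trp73 had 0 counts in every library.

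Further p53 targets were listed by role, and the lists were not tested against each other. Of all genes, 52.2% had a positive log2 fold change, and the median was 0.01. Those of cell death had a median log2 fold change of 0.04, with 7 of 12 positive, and those of DNA repair and nucleotide supply had 0.32, with 6 of 9 positive. Gadd45a, a stress gene of the repair list, stood at 5.05, 6.96, 9.31 and 6.90 CPM in tumours 1 to 4, against 2.87, 2.27, 2.59 and 2.37 CPM in non-tumour 1 to 4. Its groups did not overlap and tumour 3 was highest, unlike Cdkn1a and Btg2. The Gadd45a log2 fold change was 1.42 (SE 0.33) and missed the threshold over the 5 profiles with the filter on low counts. It passed in 5 of 23 alternatives (edgeR adjusted p 0.00273 to 1). Of these, 1 was the fit of the 5 profiles with no filter (edgeR adjusted p = 0.00906). The others took the 8 libraries as separate replicates, which counts repeats as replicates. The fit with no filter also passed Btg2 and Cdkn2b, whose groups overlapped, so passing it does not mean that the groups were apart. Polk, a translesion polymerase, had 0.46 (SE 0.27). In the cell death list, the death receptor gene Tnfrsf10b had 1.54 (SE 1.10) and the nuclease gene Aen 0.45 (SE 0.33). Tnfrsf10b followed the order of Btg2, at 3.00, 1.86, 0.0633 and 1.68 CPM in tumours 1 to 4, against 0.655, 0.466, 0.273 and 0.686 CPM in non-tumour 1 to 4. The reads behind this order were few, with 1 in tumour 3 and 4 to 13 in each non-tumour library.

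Targets of metabolism, growth and secretion had a median log2 fold change of 0.21, with 7 of 13 positive. The cytokine gene Lif, at 0 to 28 reads per library, had a log2 fold change of 2.65 (SE 1.23). It was 1.6 without non-tumour 2/3/4 and 4.08 without non-tumour 1, and tumour 3, with 1 read, lay below non-tumour 1.

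Of 14 tested cell cycle genes that p53 is known to repress through p21, 13 were higher in tumour 1 than in tumour 3, as was Cdkn1a, against 50.7% of all genes. The exception was E2f1, at 3.09, 3.02 and 3.74 CPM in tumour profiles 1, 2/4 and 3. Reads of the 14 in tumour 3 were few, from 1 for Bub1 to 59 for E2f1. The median log2 ratio of the 14 to the non-tumour mean was 1.43 in tumour 1, 0.41 in tumour 2/4 and -1.20 in tumour 3, and -0.33 in non-tumour 1 and 0.27 in non-tumour 2/3/4. By this median, non-tumour 1 was the lower of the non-tumour profiles, whereas in Cdkn1a it was the higher. Whether p21 had a part in these levels was not tested. Of the 14, 12 had a positive log2 fold change, with a median of 0.50, and the lowest p-values were those of Mybl2 at 2.09 (SE 0.77) and Bub1 at 1.09 (SE 0.91). Mybl2 had 1 to 14 reads per library. Leaving out tumour 3 or either non-tumour profile gave 1.69 to 3.14, and Mybl2 was not tested without tumour 1 or without tumour 2/4. Among the CDK inhibitors, 3 of 6 were positive. Cdkn2b, which encodes p15, stood at 16.8, 7.80, 0.127 and 7.84 CPM in tumours 1 to 4, against 1.01, 0.699, 0.682 and 0.686 CPM in non-tumour 1 to 4. It was lowest in tumour 3, with 2 reads, and its log2 fold change was 3.31 (SE 1.45). Cdkn2a, the gene of p16 and of the MDM2 inhibitor ARF, had 79 reads in tumour 1 and 1 to 14 in each other library, with a log2 fold change of 2.02 (SE 1.33), or 0.01 (SE 0.77) without tumour 1.

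The BCL2 family, to which Bax belongs, had a median of 0.09, with 9 of 12 positive. Bad and Bak1, which promote cell death, had -0.42 (SE 0.19) and -0.34 (SE 0.21), so the difference in Bax was not shared by Bak1 in sign. Paralogs and other relatives of the 10 genes had a median of -0.22, with 2 of 8 positive. Ccng2, the relative of Ccng1, had -0.42 (SE 0.30).

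Genes of the integrated stress response, which can induce Gdf15 without p53, had a median of 0.60, with 8 of 9 positive. Ddit3, the transcription factor CHOP, stood at 9.28, 7.65, 7.60 and 7.84 CPM in tumours 1 to 4, against 3.58, 4.31, 4.02 and 3.93 CPM in non-tumour 1 to 4. The groups were well apart and tumour 3 was level with tumours 2 and 4. The Ddit3 log2 fold change of 1.08 (SE 0.22) missed the threshold over the 5 profiles but passed in 4 of 23 alternatives (edgeR adjusted p 0.00226 to 1). Each of these 4 took the 8 libraries as separate replicates, some with a library left out, and so counted repeats as replicates. Trib3, a pseudokinase induced by CHOP, had 1.66 (SE 0.57). Its groups overlapped, unlike those of Ddit3, with 24.3, 30.7, 7.85 and 30.5 CPM in tumours 1 to 4. Non-tumour 1 to 4 stood at 5.19, 9.2, 6.82 and 7.67 CPM.

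**Figure D4:**
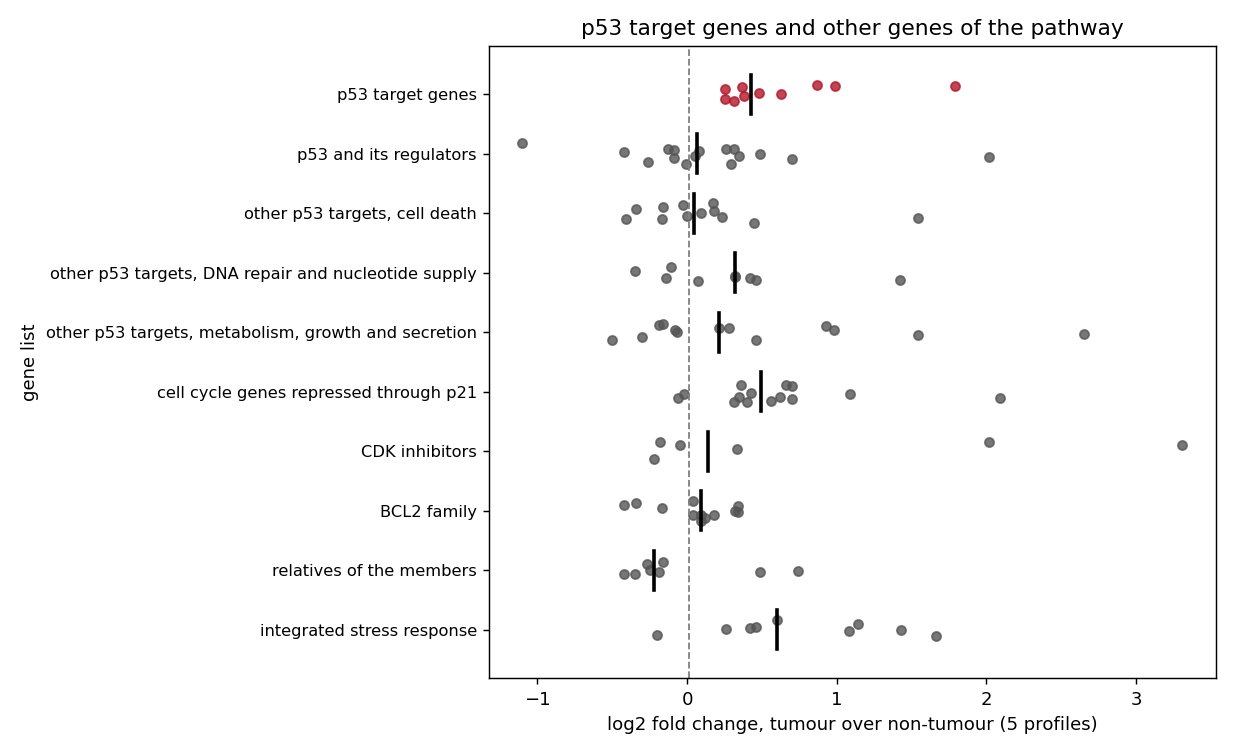
log2 fold change (tumour over non-tumour, 5 profiles) of each tested gene, by list, with a bar at the list's median and a dashed line at the median of all genes, 0.01. The 10 p53 target genes (top row) lie between 0.25 and 1.79, whereas the other p53 targets lie on either side of 0.

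Markers of other liver cell types differed between profiles as well. Cholangiocyte markers, 7 of 7 detected, summed to 405, 189, 22.7 and 197 CPM in tumours 1 to 4, against 33.1 to 39.9 CPM in non-tumour tissue. They were thus high and low in the same tumours as Cdkn1a, Btg2 and Zmat3. Kupffer cell and macrophage markers, 7 of 7 detected, summed to 170 to 232 CPM in tumours, against 613 CPM in non-tumour 1, while non-tumour 2, 3 and 4 lay at 183 to 186 CPM. Endothelial markers, 6 of 6 detected, summed to 121 to 159 CPM in tumours, against 263 CPM in non-tumour 1, while non-tumour 2, 3 and 4 lay at 110 to 112 CPM. Non-tumour 1 was also the library where Gdf15 and Trp53inp1 were low and Cdkn1a was above the other non-tumour libraries. T cell markers summed to 3.73 to 5.57 CPM in tumours, against 6.40 to 8.73 CPM in non-tumour tissue. B cell markers summed to 23.0 to 28.0 CPM in tumours, against 12.8 to 33.1 CPM in non-tumour tissue. Neutrophil markers summed to 1.84 to 4.05 CPM in tumours, against 3.68 to 4.94 CPM in non-tumour tissue, with Ly6g at no more than 3 reads in any library. Stellate cell and fibroblast markers summed to 157 to 195 CPM in tumours, against 166 to 183 CPM in non-tumour tissue. The part of these cell types in the differences between profiles was not tested.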

How the data were processed

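The authors deposited raw read counts per gene, 1 file per library. Per the file headers, featureCounts 1.6.2 made these counts with strand setting 2, summing exons by gene (Ensembl release 95, GRCm38) and leaving out multi-mapping reads, so reads shared with near-identical copies are missing. STAR 2.5.0 and Subread 1.6.2 are named in the submitters' processing notes. Trimming is not given in the sources used here. Symbols matched 54723 of 54838 gene IDs.

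Libraries of a group with a chi-square of gene counts under 10 per degree of freedom, taking genes that had at least 20 reads across both libraries, were summed into 1 profile. Tumour was compared with non-tumour by edgeR 4.0.16 in R 4.3.3 (TMM scaling, filterByExpr with minimum count 10 and minimum total 15, glmQLFit with robust estimation, glmQLFTest), adjusted after Benjamini and Hochberg across every tested gene, at a threshold of 0.05. The SE is the log2 fold change over the root of F. CPM use TMM-scaled totals of the 8 libraries, and a profile's CPM is the mean of its libraries. RPKM divide CPM by the exon length in the files. Alternatives were other scalings, filters, DESeq2 1.42.0, limma 3.58.1 voom, 8 separate libraries, a replicate block and leaving out samples. The fit was tested on simulated data.

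The 10 genes, the lists, the markers and the tests were chosen with earlier results of these data known. Named besides the 10 were Trp53, Mdm4 and, per list, the 2 tested genes with the lowest p-values, where none passed; 1 of these genes is not reported here. Afp, Gfral, Trp63 and Trp73 were named after their values were seen.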

Additional observations from a re-analysis of the deposited data

How the results depend on the processing

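The count of genes past the threshold was 0 of 13650 with near-identical libraries counted once (451 at an unadjusted p under 0.05), and it was 0 under the 3 other scalings, under a minimum mean of 1 CPM, with 1 library of each near-identical set and with limma voom (411 at an unadjusted p under 0.05). It was 2 with DESeq2, 56 with the 8 libraries as separate replicates and 427 with no filter on low counts. Leaving out samples gave 0 to 1798. With no filter, 2 of the 10 genes passed, Phlda3 (adjusted p = 0.0102, 0.0101 to 1 over its 23 alternatives) and Btg2 (0.00541, 0.0015 to 1). Their fold changes hardly moved, but the SE was 0.46 against 0.59 with the filter for Phlda3, and 0.24 against 0.78 for Btg2. Leaving out samples gave 0 to 6 of the 10. The 6, with 8 separate libraries and no tumour 3, were Cdkn1a, Ccng1, Phlda3, Eda2r, Zmat3 and Btg2, and without non-tumour 1 the 2 called were Cdkn1a and Ccng1.

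Of 230 values of the 10 genes under alternatives, 214 kept direction and side of the threshold, 10 passed it and 6 turned sign. The sign turned for Gdf15, which ranged from -0.08 to 1.46 on leaving out samples, and for Trp53inp1, from -0.14 to 0.78. Among the other named genes it turned for Trp53 (-0.02 to 0.21) and Eda (-0.41 to 0.49, and 0.37 with 1 library of each near-identical set). The cause was not tested. Among the pathway genes named by the rule, 26 values under alternatives passed the threshold and 388 kept their side.

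A replicate block over the 8 separate libraries called 0 genes and 0 of the 10. Whether the numbers pair the samples could not be decided. Deviations of same-numbered libraries from their group means correlated at 0.34, -0.15, 0.28 and -0.14, and 2 of the 4 numbers matched best with their own. Non-tumour 2, 3 and 4 nearly matched one another, as did tumour 2 and 4, so this check could not tell those libraries apart. No library could be tested as an outlier, since the groups hold 3 and 2 distinct profiles. Phlda3 had 9 to 118 reads per library, so its values carry more counting error than those of the abundant targets.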
